A study of Mus musculus with 2 samples.

Results

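Csf1r, Csf2ra, Csf2rb, Csf2rb2 and Flt3, which encode the receptors for colony-stimulating factors and for Flt3 ligand, and Csf1, which encodes the ligand of CSF1R, were followed through the macrophages, monocytes and dendritic cells (DCs) of mouse lungs. These 6 genes were taken by symbol from the 31053 genes of the count matrices, and all 6 were present. CSF1R is a receptor tyrosine kinase on which monocytes and most tissue macrophages rely for survival, and its ligands are CSF1 and IL-34. The GM-CSF receptor pairs an alpha chain, made from Csf2ra, with the common beta chain, made from Csf2rb, and GM-CSF is required for the differentiation of alveolar macrophages. Flt3 is a receptor tyrosine kinase through which Flt3 ligand sustains the development of DCs, and mice carry Csf2rb2 beside Csf2rb, a beta chain known for its use by the IL-3 receptor.

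Messenger RNA molecules were counted as unique molecular identifiers (UMIs) by droplet-based single cell RNA sequencing of cells sorted from the lungs of female C57BL/6J mice under 3 treatments. Lungs of 8 animals were pooled before sorting, and whether this number holds for each treatment or in all is not given in the sources used here. The asthma pool was sensitized with ovalbumin (OVA) in the aluminium adjuvant Alum and challenged intranasally with OVA. The tolerance pool inhaled OVA ahead of that asthma protocol, and the control pool was given Alum without OVA and intranasal saline. DCs were sorted as cells without MerTK, CD64 and Ly6C that stained strongly for MHC-II and CD11c, macrophages were sorted as well, and the hashtagged pools were mixed and run on 2 lanes. The lanes are technical, so a treatment rests on 1 pool of mice and treatments were compared without a test. The sort also sets which macrophages and monocytes could be captured, so numbers of cells are not read as abundance in the lung.

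After filtering, 9856 of 10901 barcodes were used. Before filtering, the lanes held 7897139 to 11459855 UMIs per pool. No barcode was shared between lanes or between the pools of a lane. Cells were placed in classes by marker genes that did not include any of the 6 genes, and a class is named here only for its markers. Of the 8990 cells gated, 4649 were alveolar macrophage-like, 903 C1q-high macrophage-like (called C1q macrophages), 90 cycling C1q cells, 365 nonclassical monocyte-like, 101 classical monocyte-like, 273 Xcr1+ cDC1-like, 745 cDC2-like and 317 mature DC-like (Ccr7, Fscn1). Within these gates the medians of the marker lists of other classes were highest for the C1q list in nonclassical monocytes, at 19.96 UMIs per 10000, against 108 in C1q macrophages. Of this list, Apoe was found in 80.55% of nonclassical monocytes, and C1qa, C1qb, C1qc, Ms4a7 and Pf4 in 0.27% to 6.03%. In all, 746 cells lay near the border between classes, and 505 of these were left in no class. The classical monocyte and cycling C1q gates are uncertain. Of the 101 classical monocytes 25 lay near the border. In a clustering of all cells, 51 of them fell into the C1q macrophage clusters and 37 into the classical monocyte clusters. Of the 90 cycling C1q cells, 64 fell into a cluster named cycling cDC2 and 26 into the C1q macrophage clusters. The cDC2 marker list had a median of 14.21 UMIs per 10000 in cycling C1q cells, against 5.48 in C1q macrophages. The control pool had only 56 C1q macrophages and 31 mature DCs, against 343 and 211 in the asthma pool and 504 and 75 in the tolerance pool.

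The promoter windows of Csf2ra, Csf2rb2 and Flt3 are shown because they differ in the short purine motif AGGAAG. It is the core of the sites bound by ETS factors such as PU.1. The 300 bases run 5′ to 3′ on the gene's strand from 250 bases before the start of transcription (RefSeq, GRCm38.p6), and capitals mark AGGAAG or its reverse complement CTTCCT. Of the 6 genes, the windows of 4 were examined, and those of Csf1r and Csf2rb were not. Csf2ra (chr19:61228369-61228668) and Csf2rb2 (chr15:78305672-78305971) each had 2 matches, and Flt3 (chr5:147400440-147400739) and Csf1 (chr3:107760420-107760719) had 0. Of 32851 promoters of this length, 35.4% held at least 1 match. A second motif, TGTGGT, the core of RUNX sites, matched 0 of these 4 windows and 16.8% of all promoters.
Csf2ra promoter: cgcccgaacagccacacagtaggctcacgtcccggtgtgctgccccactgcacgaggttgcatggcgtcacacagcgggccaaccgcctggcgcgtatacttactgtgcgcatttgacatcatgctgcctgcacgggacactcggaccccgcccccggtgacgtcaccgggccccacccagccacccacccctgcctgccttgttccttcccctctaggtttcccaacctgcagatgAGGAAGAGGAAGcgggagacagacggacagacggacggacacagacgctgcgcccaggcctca
Csf2rb2 promoter: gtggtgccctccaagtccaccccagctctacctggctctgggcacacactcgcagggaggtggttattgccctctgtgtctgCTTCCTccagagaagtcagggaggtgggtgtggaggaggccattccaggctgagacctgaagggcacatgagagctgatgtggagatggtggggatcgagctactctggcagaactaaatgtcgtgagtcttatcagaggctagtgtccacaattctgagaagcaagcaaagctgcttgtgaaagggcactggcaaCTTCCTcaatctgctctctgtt
Flt3 promoter: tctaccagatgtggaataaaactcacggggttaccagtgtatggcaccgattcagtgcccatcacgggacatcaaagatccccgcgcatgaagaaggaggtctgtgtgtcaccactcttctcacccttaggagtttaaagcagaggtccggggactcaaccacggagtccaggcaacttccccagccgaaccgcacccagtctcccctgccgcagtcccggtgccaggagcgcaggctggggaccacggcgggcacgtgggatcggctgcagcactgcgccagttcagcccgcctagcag

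The genes lie at distinct loci in GRCm38 (mm10), except that Csf2rb and Csf2rb2 are neighbours. Csf1r lies on chromosome 18 at 61100598 to 61132149 on the plus strand, Flt3 on chromosome 5 at 147330741 to 147400489 on the minus strand, Csf2ra on chromosome 19 at 61223957 to 61228429 on the minus strand and Csf1 on chromosome 3 at 107741048 to 107760469 on the minus strand. Csf2rb lies on chromosome 15 at 78325752 to 78353847 on the plus strand, and Csf2rb2 lies 20030 bases from it at 78282507 to 78305721 on the minus strand. Their longest coding transcripts were 90.9% identical over 4679 aligned bases. They shared 778 runs of 56 bases, the read length, but 0 of the 545 runs in the last 600 bases, where 3′ reads begin, so reads of the 3′ end can be told apart. Reads that start further upstream could be split between the genes, and their levels carry that uncertainty. Csf1r overlaps Hmgxb3 on the opposite strand and Flt3 overlaps Gm26597 on the opposite strand.

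Within a class and pool, with lanes added, each gene's level is its UMI count divided by all UMIs of the class and scaled to 1e+06 (CPM), so that a level is a share of all messages and fewer messages per cell cannot be told apart from fewer cells with the gene. Classes were ranked where at least 2 pools held 10 cells or more, which leaves out the rarest classes, such as the basophil-like or mast-like cells. Csf1r was highest in nonclassical monocytes, at 839 ± 19.2 CPM (SD, n = 3 pools), followed by C1q macrophages at 635 ± 32.1 CPM. The ranges of these 2 classes did not overlap. The cycling C1q cells, at 525 ± 25.6 CPM in 2 pools, and the classical monocytes, at 441 ± 111 CPM, followed with overlapping ranges. cDC2 at 137 ± 5.87 CPM and alveolar macrophages at 128 ± 19.4 CPM overlapped as well, and mature DCs had 12.2 ± 4.81 CPM. Neutrophils had 249.8 ± 199 CPM, on 80 cells with few UMIs, and their pools ranged between 35.4 and 429 CPM.

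**Figure D1:**
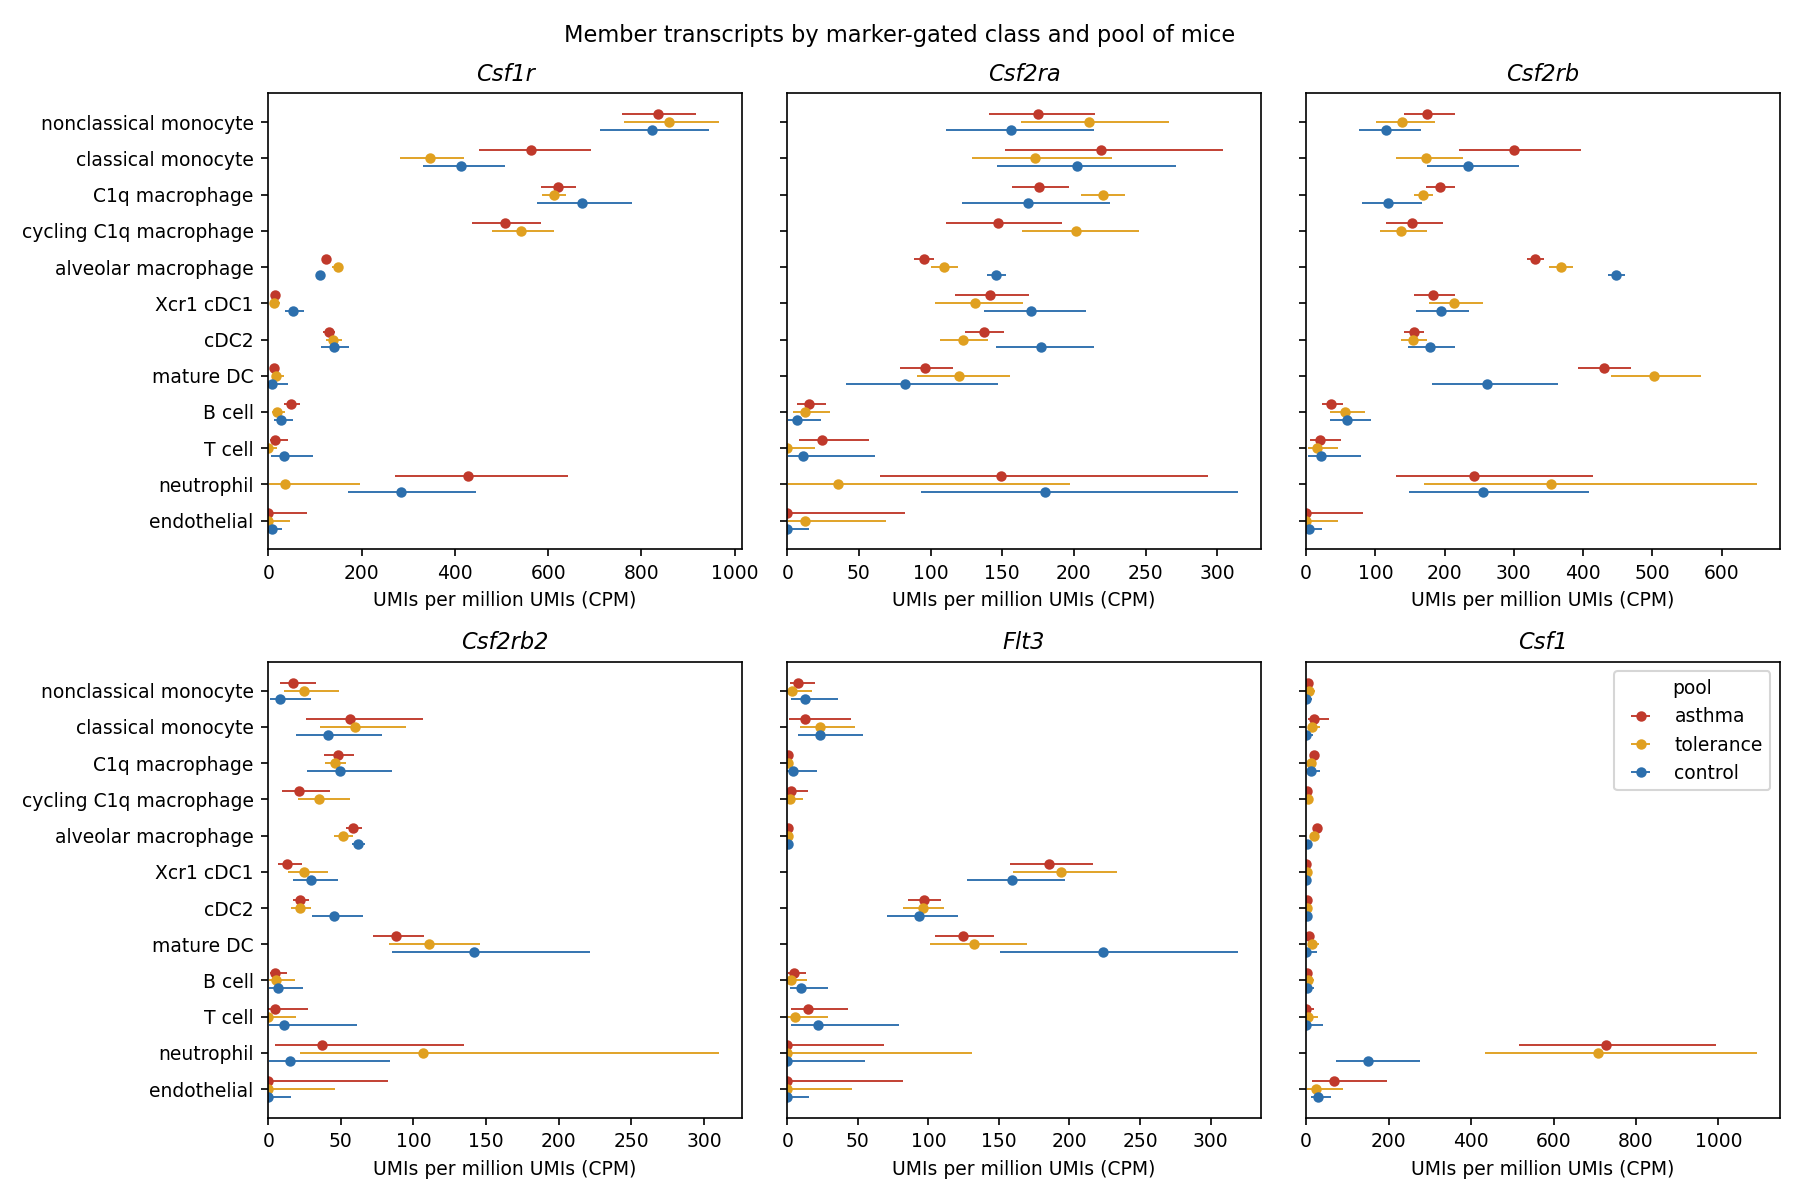
Levels of the 6 genes (CPM, linear axis) in 12 marker-gated classes; points are pools of mice, coloured asthma, tolerance and control, and bars are exact Poisson intervals at 95% for counting error. Csf1r was at 822 to 860 CPM in nonclassical monocytes, Csf2rb was highest, among classes ranked, in mature DCs and alveolar macrophages, and Flt3 was at 93.5 to 224 CPM in the 3 DC classes.

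Csf2ra, the alpha chain of the GM-CSF receptor, was present in all of these classes. It ranged between 99.2 ± 19.0 CPM in mature DCs and 198 ± 23.1 CPM in classical monocytes over the non-cycling myeloid classes, and neighbouring classes in that order overlapped. Csf2rb, the common beta chain, was highest, among the classes ranked, in mature DCs at 398 ± 124 CPM and in alveolar macrophages at 382 ± 59.8 CPM, whose ranges overlapped, and lower in cDC2 at 163 ± 13.8 CPM, C1q macrophages at 161 ± 38.5 CPM and nonclassical monocytes at 143 ± 30.03 CPM. Csf2rb2 was highest, among the same classes, in mature DCs at 114 ± 26.9 CPM, above the ranges of cycling alveolar macrophages at 60.2 ± 4.25 CPM and alveolar macrophages at 57.3 ± 5.34 CPM.

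Flt3 was at 180 ± 18.3 CPM in Xcr1+ cDC1, 160 ± 55.3 CPM in mature DCs and 95.3 ± 1.64 CPM in cDC2. The first 2 of these overlapped and cDC2 did not overlap either. In C1q macrophages Flt3 was 1.65 ± 1.88 CPM and in alveolar macrophages 0.795 ± 0.0731 CPM, on 4 and 19 UMIs. Classical monocytes had 19.6 ± 6.13 CPM. The 198 endothelial cells and the 80 neutrophils had 0 Flt3 UMIs, for which 3 counts would be 8.28 and 20.2 CPM.

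The lanes gave like levels. Of 108 pairs of a gene, class and pool with at least 30 UMIs in all, 84 agreed within 1.5 times between the lanes, and the median ratio of lane 1 over lane 2 was 1.00. The widest ratios were those of Csf1, at 34.5 and 5.49 CPM in C1q macrophages and 0 and 1118 CPM in neutrophils of the asthma pool.

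C1q macrophages and alveolar macrophages, the macrophage classes that are known to depend on different colony-stimulating factors, had opposite receptor levels. Csf1r had 622, 612 and 672 CPM in C1q macrophages of the asthma, tolerance and control pools, against 123, 149 and 111 CPM in alveolar macrophages. All 3 C1q values lay above all 3 alveolar values. It rose by 2.36 ± 0.14 on the log2 scale (SE; quasi-likelihood test of edgeR, Benjamini-Hochberg adjusted over all genes tested, adjusted p = 9.22e-07). Csf2rb had 194, 169 and 118 CPM in C1q macrophages, against 331, 368 and 448 CPM in alveolar macrophages, without overlap. It fell by 1.13 ± 0.18 on the log2 scale (edgeR, adjusted p = 6.8e-04).

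Csf2ra went the other way from its partner chain in these macrophages. It had 176, 220 and 168 CPM in C1q macrophages, against 95.4, 109 and 146 CPM in alveolar macrophages, and rose by 0.81 ± 0.15 (log2; edgeR, adjusted p = 0.0017). The ratio of Csf2rb to Csf2ra UMIs was therefore 0.858 (95% interval 0.787 to 0.935) in C1q macrophages and 3.22 (3.09 to 3.35) in alveolar macrophages. Csf2rb2 did not pass the test (log2 fold change -0.20 ± 0.13, edgeR, adjusted p = 0.25), and neither did Csf1 (-0.36 ± 0.28, edgeR, adjusted p = 0.35), whose alveolar levels differed widely between pools. Flt3 was too low to be tested. Of the 5 members tested 3 passed, against 37.6% of all 10208 genes tested.

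Lists of genes that act in these pathways are given by their counts. Of 17 genes of the GM-CSF response list tested, 10 fell and 2 rose in C1q macrophages (median log2 fold change -1.01, against -0.02 over all genes tested, of which 19.7% fell and 17.8% rose), and Car4, a carbonic anhydrase, fell the most (6.99 ± 0.22 on the log2 scale). Of 13 genes of the CSF1R-dependent list, 9 rose and 2 fell (median 1.00), with the folate receptor Folr2 at 8.14 ± 0.49, the chemokine receptor Cx3cr1 at 8.07 ± 0.29, the transcription factor Maf at 6.21 ± 0.23 and Lyve1 at 6.19 ± 0.72. Folr2 and Lyve1 were at or near 0 in alveolar macrophages, so their log2 fold changes depend on the prior count of the fit. Of 25 receptor-proximal signalling genes, 7 rose and 4 fell, a share near that of all genes.

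**Figure D2:**
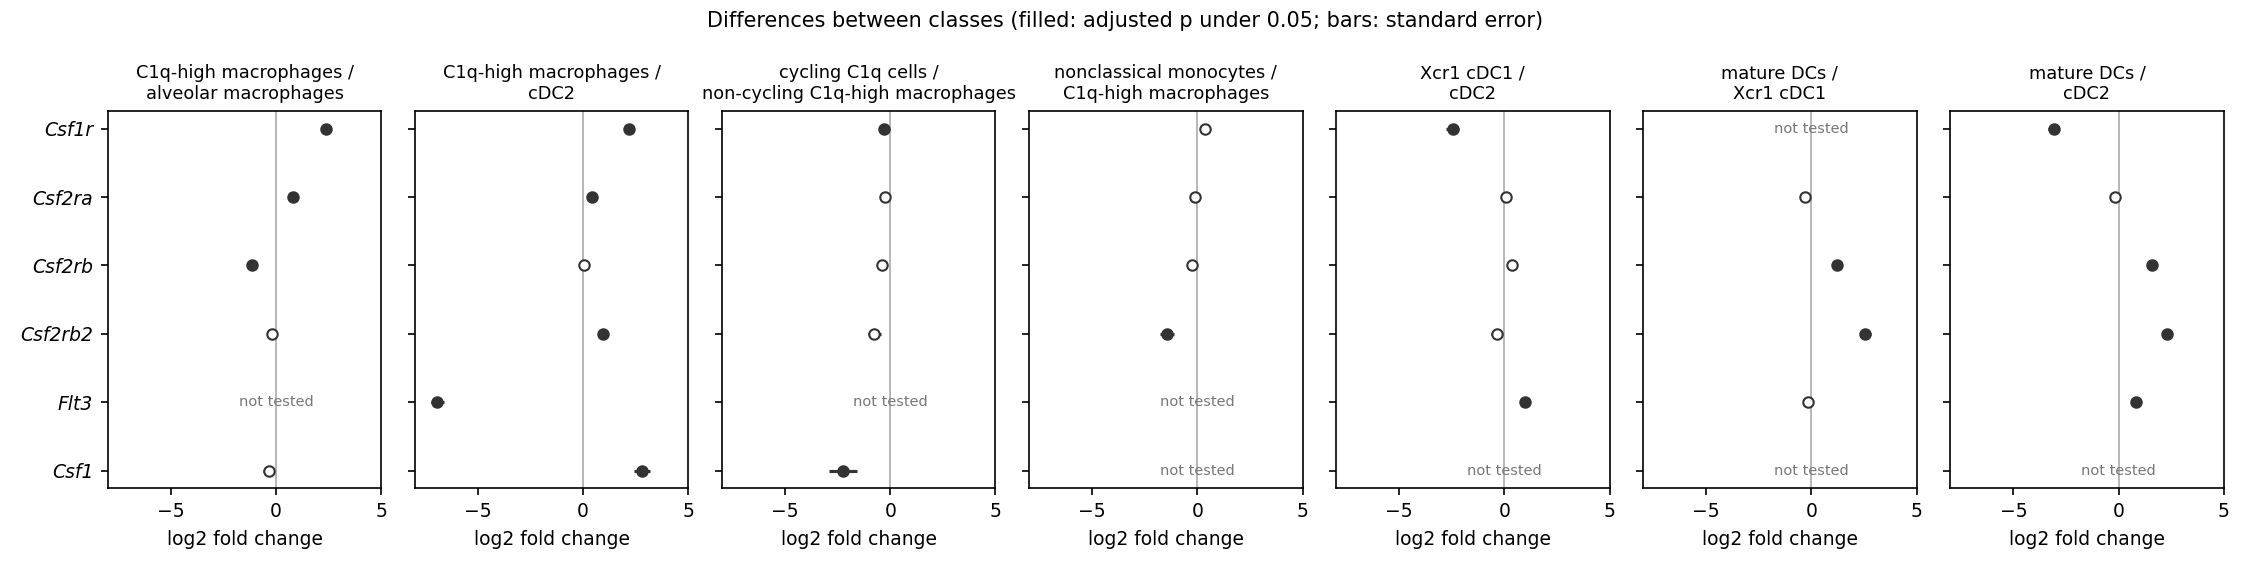
Log2 fold change (horizontal axis) of each gene in the 7 comparisons between classes, the class named first in a panel's title over the class named after it; bars are standard errors and filled points passed an adjusted p of 0.05. Csf1r was 2.36 higher in C1q macrophages than in alveolar macrophages and 3.09 lower in mature DCs than in cDC2, and Csf2rb2 was 2.57 higher in mature DCs than in Xcr1+ cDC1.

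C1q macrophages and cDC2 were set apart by Csf1r and Flt3. Csf1r had 622, 612 and 672 CPM in C1q macrophages of the asthma, tolerance and control pools, against 130, 139.7 and 140.2 CPM in cDC2. It rose by 2.18 ± 0.13 (log2; edgeR with Benjamini-Hochberg adjustment, adjusted p = 6.02e-10). Flt3 had 0.562, 0.558 and 3.82 CPM in C1q macrophages, on 1, 2 and 1 UMIs, against 96.6, 95.9 and 93.5 CPM in cDC2. The difference in Flt3 passed the test (edgeR, adjusted p = 8.74e-12) and its fitted fold depends on the prior count. cDC2 were not without Csf1r: 18.9% of the 724 cDC2 with at least 2000 UMIs held UMIs of both Csf1r and Flt3.

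Csf2rb2 was higher in C1q macrophages than in cDC2, at 47.7, 45.8 and 49.6 CPM against 21.9, 21.6 and 45.1 CPM, but its call (0.94 ± 0.19, edgeR, adjusted p = 8.08e-04) was lost without the pool as a block (adjusted p = 0.073), without the asthma pool (0.073), without the tolerance pool (0.11) and in DESeq2 (0.076). The Csf2ra values of C1q macrophages overlapped those of cDC2 and the call (0.44 ± 0.16, edgeR, adjusted p = 0.037) was lost in 9 of 14 alternatives. Without the tolerance pool Csf2ra had a log2 fold change of 0.13. Csf2rb did not pass (0.06 ± 0.15, edgeR, adjusted p = 0.81), and Csf1 rose by 2.80 ± 0.39 (edgeR, adjusted p = 1.56e-05). Csf1 had 19.65, 12.83 and 11.45 CPM in C1q macrophages, against 2.82, 1.66 and 1.61 CPM in cDC2. These rest on 35, 46 and 3 UMIs and on 8, 3 and 1 UMIs, so the size of the fold is uncertain. Of 6 members 5 passed, against 35.6% of all genes. Of 13 CSF1R-dependent genes 12 rose and 0 fell (Maf 6.33 ± 0.33), and of 12 Flt3-dependent DC genes 8 fell and 1 rose. Those that fell included the DC transcription factors Zbtb46 (-5.46 ± 0.37) and Bcl11a (-5.36 ± 0.21). Maf was near 0 in cDC2, at 0.605 ± 0.561 CPM, so its log2 fold change depends on the prior count. Of 17 genes of the GM-CSF response list 9 rose and 5 fell (median 0.79).

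The cycling C1q cells, marked by proliferation genes, had Csf1r levels near those of C1q macrophages, while cDC2 were at 137 ± 5.87 CPM. In the clustering of all cells, 64 of these 90 cells fell into the cluster named cycling cDC2. Csf1r had 507 and 543 CPM in cycling C1q cells of the asthma and tolerance pools, against 622 and 612 CPM in C1q macrophages that did not cycle. It fell by 0.31 ± 0.11 (log2; edgeR with Benjamini-Hochberg adjustment, adjusted p = 0.038), and the call was lost in 5 of 10 alternatives, among them each lane alone. Csf1 fell by 2.23 ± 0.67 (edgeR, adjusted p = 0.0116) on 3 UMIs in cycling cells, and was lost in 3 of 8 alternatives. Csf2ra, Csf2rb and Csf2rb2 did not pass. Flt3 was too low to be tested, with 2.27 CPM (0.275 to 8.21) on 2 UMIs. The control pool had 4 cycling C1q cells and was left out, and 17.0% of all genes tested passed. Of 13 CSF1R-dependent genes 2 rose and 5 fell, and of 15 genes of the GM-CSF response list 0 rose and 7 fell.

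Nonclassical monocytes, which patrol the blood vessels, had the highest Csf1r of the classes ranked. It had 836, 860 and 822 CPM in nonclassical monocytes of the asthma, tolerance and control pools, against 622, 612 and 672 CPM in C1q macrophages, without overlap. The difference did not pass the test (0.35 ± 0.14, log2; edgeR with Benjamini-Hochberg adjustment, adjusted p = 0.054) and passed in 4 of 14 alternatives, among them without the pool as a block (adjusted p = 0.047) and without the control pool (0.0034). Csf2rb2 fell, with 17.3, 24.7 and 8.22 CPM in nonclassical monocytes, against 47.7, 45.8 and 49.6 CPM in C1q macrophages (-1.46 ± 0.33, edgeR, adjusted p = 0.00278), and this call was lost without the asthma pool (adjusted p = 0.078). Csf2ra and Csf2rb did not pass. Of 4 members tested 1 passed, against 40.0% of all genes. Of 11 CSF1R-dependent genes 8 fell and 3 rose, with the phagocytic receptor Mertk at -5.14 ± 0.58 and the mannose receptor Mrc1 at -4.33 ± 0.35. Of 14 genes of the GM-CSF response list 5 rose and 6 fell (median -0.03), with the fatty acid binding protein Fabp4 at 3.91 ± 0.28 and the signalling inhibitor Socs2 at -4.50 ± 0.49. Mertk and Socs2 were near 0 in nonclassical monocytes, at 2.74 ± 4.745 and 1.921 ± 3.327 CPM. Their log2 fold changes therefore depend on the prior count of the fit.

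Xcr1+ cDC1 had more Flt3 and less Csf1r than cDC2. Flt3 had 186, 194 and 159 CPM in Xcr1+ cDC1 of the asthma, tolerance and control pools, against 96.6, 95.9 and 93.5 CPM in cDC2, without overlap. It rose by 0.99 ± 0.13 (log2; edgeR with Benjamini-Hochberg adjustment, adjusted p = 2.72e-04). Csf1r had 14.02, 12.2 and 53.6 CPM in Xcr1+ cDC1, against 130, 139.7 and 140.2 CPM in cDC2, and fell by 2.45 ± 0.30 (edgeR, adjusted p = 1.41e-04). The GM-CSF receptor genes and Csf2rb2 did not pass: Csf2ra had a log2 fold change of 0.09 ± 0.13, Csf2rb of 0.34 ± 0.13 and Csf2rb2 of -0.35 ± 0.28. Of 5 members 2 passed, against 18.2% of all genes. Of 11 Flt3-dependent DC genes tested 4 rose and 4 fell, where 9.68% of all genes rose and 8.52% fell. Among these 11, Irf8 (6.88 ± 0.14) and Id2 (2.44 ± 0.27), transcription factors required for cDC1, rose, and Irf4 (-3.31 ± 0.34), a factor of cDC2, fell. Of 8 CSF1R-dependent genes 0 rose and 3 fell, and of 12 genes of the GM-CSF response list 1 rose and 3 fell.

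Mature DCs, which express Ccr7 for migration to lymph nodes, had more of both beta chains than either other DC class. Csf2rb had 430, 502 and 261 CPM in mature DCs of the asthma, tolerance and control pools, against 184, 213 and 194 CPM in Xcr1+ cDC1. It rose by 1.20 ± 0.20 (log2; edgeR with Benjamini-Hochberg adjustment, adjusted p = 2.23e-04). Csf2rb2 had 88.3, 111 and 142 CPM in mature DCs, against 12.9, 24.5 and 29.6 CPM in Xcr1+ cDC1, and rose by 2.57 ± 0.26 (edgeR, adjusted p = 2.91e-06). In both genes all 3 pools of mature DCs lay above all 3 pools of Xcr1+ cDC1. Csf2ra (-0.33 ± 0.21) and Flt3 (-0.15 ± 0.21) did not pass, and Csf1r was too low to be tested. Of 4 members 2 passed, against 43.1% of all genes.

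Against cDC2, mature DCs had 430, 502 and 261 CPM of Csf2rb, where cDC2 had 156, 155 and 179 CPM. Csf2rb rose by 1.58 ± 0.20 (edgeR, adjusted p = 2.21e-06), Csf2rb2 by 2.29 ± 0.21 (edgeR, adjusted p = 2.27e-08) and Flt3 by 0.82 ± 0.18 (edgeR, adjusted p = 8.99e-04). Csf1r fell by 3.09 ± 0.26, with 12, 17.1 and 7.46 CPM in mature DCs, against 130, 139.7 and 140.2 CPM in cDC2 (edgeR, adjusted p = 6.25e-09). Csf2ra did not pass (-0.19 ± 0.20). Of 5 members 4 passed, against 46.9% of all genes. The comparisons share the mature DCs, so their directions are not independent. Of 13 genes of the GM-CSF response list, 9 rose and 0 fell against Xcr1+ cDC1, and 9 rose and 3 fell against cDC2. Socs2, which restrains cytokine receptor signalling, rose by 7.64 ± 0.39 and 4.98 ± 0.22, and Fabp4 by 6.40 ± 0.36 and 6.11 ± 0.32.

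The share of cells with at least 1 UMI followed the levels but also the depth of a cell. At own depth Csf1r was found in 89.4% of C1q macrophages (exact Clopper-Pearson 95% interval 87.2 to 91.3), 83.6% of nonclassical monocytes (79.3 to 87.2) and 3.01% of B cells (1.76 to 4.78), which should lack it, with median depths of 5921, 2243 and 1857.5 UMIs. When each cell was thinned to 2000 UMIs, the shares were 68.1% of 828 C1q macrophages, 80.4% of 227 nonclassical monocytes and 4.33% of 240 B cells. The order of the C1q macrophages and nonclassical monocytes thus turned, to that of the CPM. B cells kept only their deeper cells in this step. Mature DCs, at 2.36% thinned, lay below B cells and are read as background, and Xcr1+ cDC1, at 4.42%, were level with B cells.

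Csf2rb thinned was found in 52.2% of 4481 alveolar macrophages, 49.1% of 297 mature DCs, 27.3% of C1q macrophages and 8.74% of B cells. Csf2ra lay between 17.7% in mature DCs and 31.0% in C1q macrophages, against 2.06% in B cells. Csf2rb2 was found in 17.5% of mature DCs, 10.6% of alveolar macrophages and 1.30% of B cells. Flt3 was found in 30.7% of 267 Xcr1+ cDC1, 22.5% of mature DCs and 17.0% of 724 cDC2, against 0.162% of C1q macrophages and 0.138% of alveolar macrophages, which lay below B cells at 1.47%.

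**Figure D3:**
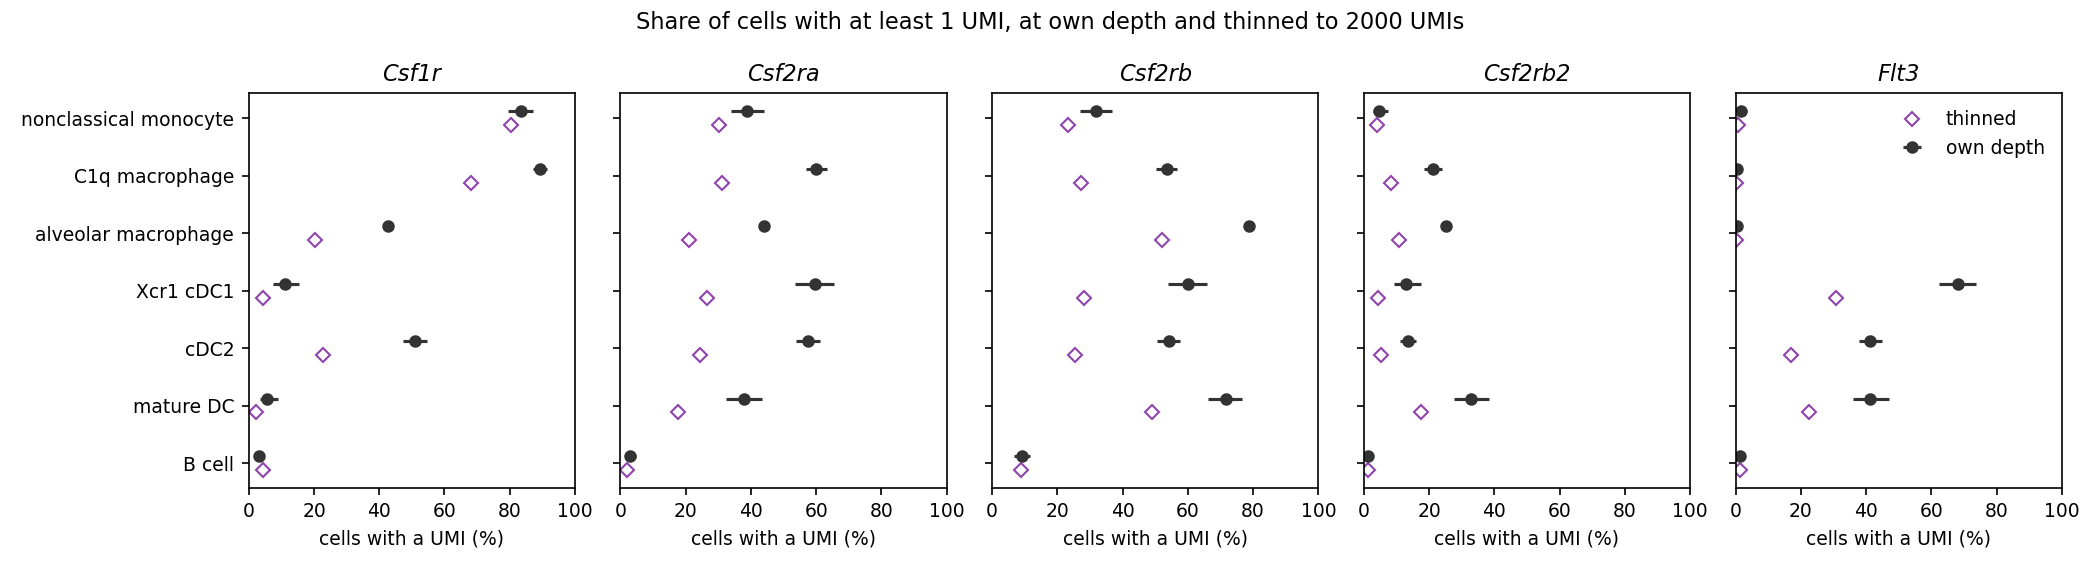
Share of cells (percent) with at least 1 UMI of each receptor gene in 7 classes; filled points are at own depth with exact Clopper-Pearson 95% intervals and open diamonds are after thinning each cell to 2000 UMIs. Thinning lowered Csf1r in C1q macrophages to 68.1%, below the 80.4% of nonclassical monocytes. It lowered Flt3 from 68.1% to 30.7% in Xcr1+ cDC1, from 41.3% to 22.5% in mature DCs and from 41.3% to 17.0% in cDC2.

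Csf1, the ligand, had the largest ratio between pools of any of the 6 genes with at least 30 UMIs in a class. In alveolar macrophages it had 27.0 CPM in the asthma pool, 18.4 CPM in the tolerance pool and 1.54 CPM in the control pool, on 208, 84 and 19 UMIs. By lane it had 26.2 and 27.8 CPM in the asthma pool, 16.1 and 20.4 CPM in the tolerance pool and 1.04 and 1.99 CPM in the control pool, so the lanes of the treated pools lay above those of the control pool. The ratio of asthma over control was 17.5 (95% interval 10.9 to 29.7) and of tolerance over control 11.9 (7.17 to 20.7). Intervals on UMIs and ratios cover counting error only, and 1 pool of mice per treatment gives no measure of the spread between mice.

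The Csf1 UMIs of alveolar macrophages were spread over 133 of 1581 cells in the asthma pool, 61 of 760 in the tolerance pool and 17 of 2308 in the control pool, and the highest cell held 10. Of all Csf1 UMIs in cells used, 42.1% were in alveolar macrophages, which were 4649 of the 9856 cells used. With the pools added, Csf1 was at 12.7 CPM in alveolar macrophages and 14.9 CPM in C1q macrophages. Among all genes with at least 30 UMIs, 6.43% were at least 1.5-fold higher in asthma over control alveolar macrophages with both lanes in that direction, and 6.82% in tolerance over control. Neutrophil marker genes summed to 31.5, 25.4 and 43.5 CPM in alveolar macrophages of the asthma, tolerance and control pools, and basophil or mast cell markers to 4, 0 and 1 UMIs, with 2, 4 and 3 of 4 markers at 0. The neutrophil list had 0, 0 and 1 of 5 markers at 0. Classical monocyte markers summed to 1028, 1154 and 647 CPM, with 0, 1 and 0 of 6 at 0, and Xcr1+ cDC1 markers to 808, 970 and 530.0 CPM, with 1, 3 and 1 of 8 at 0, so both lists were higher in the treated pools. Their part in the result was not tested.

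The receptors of alveolar macrophages differed less. Csf2ra had 95.4 CPM in the asthma pool and 109 CPM in the tolerance pool, against 146 CPM in the control pool, with ratios over control of 0.654 (0.599 to 0.713) and 0.749 (0.677 to 0.828). Csf2rb had 331 and 368 CPM, against 448 CPM in the control pool, with ratios of 0.739 (0.705 to 0.775) and 0.821 (0.777 to 0.867). Csf1r had 123 and 149 CPM, against 111 CPM, with ratios of 1.12 (1.03 to 1.21) and 1.34 (1.22 to 1.48). Both lanes gave the same direction in each of these. Among these, Csf2ra in asthma over control was past 1.5-fold, as were 14.1% of all genes in the lower direction.

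**Figure D4:**
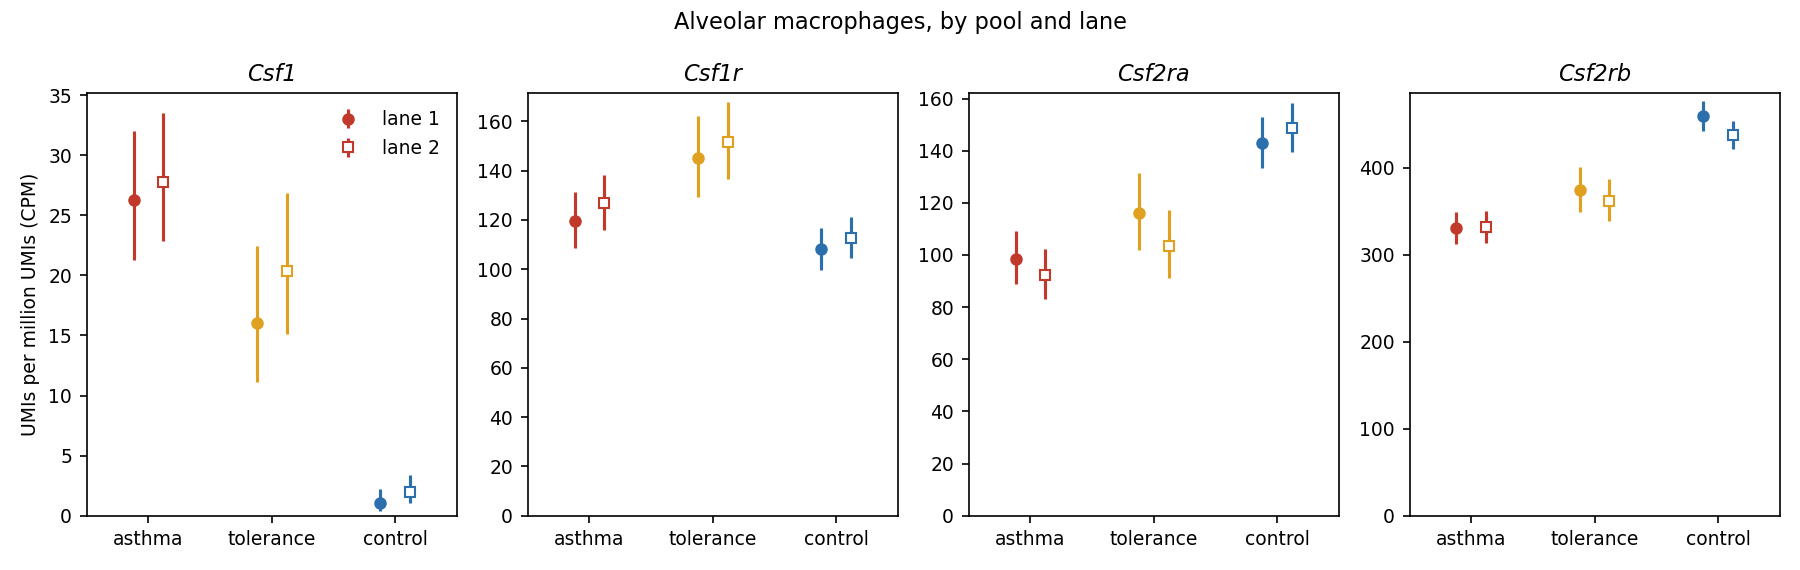
Csf1, Csf1r, Csf2ra and Csf2rb in alveolar macrophages (CPM, axes from 0) by pool, in the order asthma, tolerance and control, and by lane; bars are exact Poisson intervals at 95%. Csf1 was 27.0 and 18.4 CPM in the asthma and tolerance pools, against 1.54 CPM in the control pool, while Csf2ra and Csf2rb were lower than in the control pool in both lanes.

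In mature DCs Csf2rb had 430 and 502 CPM in the asthma and tolerance pools, against 261 CPM in the control pool, on 502, 235 and 35 UMIs. The ratios over control were 1.65 (1.17 to 2.39) and 1.92 (1.34 to 2.82), past 1.5-fold, as were 24.0% and 19.6% of all genes in that direction. Flt3 had 124 and 132 CPM, against 224 CPM in the control pool, with ratios of 0.555 (0.373 to 0.852) and 0.591 (0.377 to 0.947), past 1.5-fold in the lower direction, as were 13.1% and 13.2% of all genes. Csf2rb2 was past it in asthma over control only, at 0.622, with an interval that holds 1 (0.379 to 1.08). The control values rest on 31 cells. Nonclassical monocyte markers summed to 222, 246 and 896 CPM in mature DCs of the asthma, tolerance and control pools, with 0, 1 and 3 of 7 markers at 0. Xcr1+ cDC1 markers summed to 79.7, 89.7 and 157 CPM, with 0, 2 and 1 of 8 at 0, and cDC2 markers to 344, 309.6 and 157 CPM, with 0, 1 and 4 of 8 at 0. The part of these markers in the result was not tested.

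In Xcr1+ cDC1 Csf1r had 14.02 and 12.2 CPM in the asthma and tolerance pools, against 53.6 CPM in the control pool, on 12, 7 and 29 UMIs. The ratios over control were 0.261 (0.122 to 0.528) and 0.228 (0.0844 to 0.533), where 8.17% and 11.2% of all genes were past 1.5-fold in that direction. In the tolerance pool 1 lane gave 0.0514 and the other 0.652. The 29 UMIs of the control pool came from 17 of 82 cells. C1q macrophage markers in the same cells summed to 12.9, 33.2 and 94.3 CPM and nonclassical monocyte markers to 61.9, 40.2 and 192 CPM in the asthma, tolerance and control pools, with 1, 2 and 0 of 6 and 2, 3 and 0 of 7 markers at 0, so that markers of Csf1r-high classes were higher in the control pool too. Their part in the result was not tested.

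The remaining classes gave smaller or less certain differences. In C1q macrophages Csf2rb was 1.64 times higher (1.13 to 2.45) in the asthma pool than in the control pool, a direction and size that 19.7% of all genes had. Alveolar macrophage markers in the same cells summed to 838, 429 and 286 CPM in the asthma, tolerance and control pools, with 0, 0 and 4 of 9 at 0, and classical monocyte markers to 2090.0, 1644 and 813 CPM, with 0, 0 and 2 of 6 at 0. Their part in the result was not tested. Csf1 was 1.72 times higher in that comparison, with an interval that holds 1 (0.541 to 8.72) and 3 UMIs in the control pool. In nonclassical monocytes Csf2rb had a ratio of 1.52 of asthma over control with an interval that holds 1 (0.985 to 2.41), as large in that direction as in 8.75% of all genes. In cDC2 Csf2rb2 had 21.9 and 21.6 CPM in the asthma and tolerance pools, against 45.1 CPM in the control pool, with ratios of 0.484 (0.305 to 0.786) and 0.479 (0.287 to 0.808). The lanes of asthma over control lay on both sides of 1 (1.04 and 0.288), and those of tolerance over control were 0.877 and 0.345, where 11.5% of all genes were past 1.5-fold in the lower direction. C1q macrophage markers in cDC2 summed to 39.1, 63.8 and 264 CPM in the asthma, tolerance and control pools, with 1, 0 and 1 of 6 at 0, and mature DC markers to 461, 456 and 79.0 CPM, with 1, 1 and 4 of 8 at 0, and their part was not tested. Flt3 in cDC2 was near constant, at 96.6, 95.9 and 93.5 CPM.

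Csf1 elsewhere was scarce in the sorted macrophages and DCs, and higher in cells that the sort was not made for. Neutrophils had 727 and 709 CPM in the asthma and tolerance pools, against 150.1 CPM in the control pool, on 39, 20 and 10 UMIs, but in the asthma pool the 39 UMIs all came from 1 lane and the other lane had 0 of 18741 UMIs. Among 11 basophil-like or mast-like cells, 65 UMIs gave 3091 CPM (2385 to 3940), and these cells also had 1046 CPM of Csf2rb and 903.5 CPM of Csf2rb2. Of these cells 72.7% held a UMI of Mcpt8, a basophil protease. Xcr1+ cDC1 had 1 Csf1 UMI in 273 cells.

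Among other ligands and receptors of the same families, Il34 had 4 UMIs in all, Il3 had 0 and Csf2, which encodes GM-CSF, had 49 UMIs in 6 cells. Flt3l was at 39.1 CPM (23.5 to 61.1) in T cells, 9.51 CPM in cDC2 and 8.35 CPM in C1q macrophages. Csf3r, the G-CSF receptor, was at 1084 CPM in neutrophils, 74.5 CPM in nonclassical monocytes and 34.5 CPM in C1q macrophages. Kit, a receptor related to Csf1r and Flt3, was at 314 CPM in endothelial cells, 73.7 CPM in Xcr1+ cDC1 and 24.5 CPM in cDC2, and its ligand Kitl was at 767 CPM in endothelial cells. Il3ra, the alpha chain of the IL-3 receptor, had 1328 UMIs in 1148 cells. It was at 190 CPM (51.8 to 487) in basophil-like or mast-like cells, on 4 UMIs, and at 80.0 CPM in endothelial cells. In classical monocytes it was at 59.0 CPM, in C1q macrophages at 41.9 CPM and in alveolar macrophages at 18.8 CPM.

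Over 43 libraries of a class and a pool, the genes whose levels were most like those of each member were found by Pearson correlation of log2(CPM + 10), as a description; libraries of a pool share mice and lanes. Csf1r was most like Clec4a3 (r = 0.921), Fcer1g (0.914) and Emilin2 (0.908), and Csf2ra most like Gpx1 (0.894), Efhd2 (0.89) and Tyrobp (0.888). Csf2rb was most like Lgals3 (0.876), Atp6v0e (0.866) and Arpc5 (0.864), and Csf2rb2 most like Sgpl1 (0.849), Csf2rb (0.849) and Bcl2a1a (0.824). Flt3 was most like Cst3 (0.88), Kctd14 (0.847) and Tspan33 (0.831), and Csf1 most like Lrg1 (0.865), Grina (0.80) and Smox (0.791). Csf2ra and Csf2rb had r = 0.815, while Csf1r and Flt3 had r = -0.323.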

How the data were processed

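Gene-by-cell UMI counts came from the authors, who ran Cell Ranger 3.1.0 with STAR (mm10) and split the hashtagged pools in Seurat 3.1.5. The deposited counts were not rescaled. The filters dropped 661 barcodes above 20% mitochondrial UMIs, 22 above 20000 UMIs and 619 below 500 genes. Scrublet's automatic threshold marked 0.0585% and 0.121% of cells, too few, so the highest 2% of its scores (232 cells) went too. Cells were gated by marker scores (best at least 0.15, margin 0.05) in Python 3.11.15 with scanpy 1.11.5. Class sums per pool were tested with edgeR 4.0.16 in R 4.3.3 (quasi-likelihood, TMM, filterByExpr, Benjamini-Hochberg, adjusted p under 0.05), so a fold change need not equal a ratio of CPM. The pool was a block, since the classes of a pool come from the same mice. The p-values measure how the difference between classes varied over 3 pools (2 for cycling C1q cells), each of another treatment. DESeq2 1.42.0 was an alternative. The fits were tested on simulated data. Intervals (95%) are exact Clopper-Pearson, Poisson or conditional binomial, and a count of 0 was given a limit of 3 counts. Pools were compared by a rule of 1.5-fold with both lanes in the same direction at 30 UMIs or more. Named genes were the 6 members, up to 5 list genes per comparison with the largest called fold change, and the 3 genes most like each member (mean at least 20 CPM, libraries of at least 20 cells, gate markers left out); other ligands and receptors of the lists were named after their values were seen. The members and lists were chosen with earlier results of these data known. The depth for thinning (2000 UMIs) and the alternative by Leiden clusters for the pool ratios were chosen after seeing the data. The values of 1 list gene are not reported here.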

Additional observations from a re-analysis of the deposited data

Results flagged for a closer look

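In these results both lanes of 1 class moved one way between pools and both lanes of another class the other way, with counting intervals that leave out 1. The differences between the classes themselves were not tested, because each treatment is 1 pool of mice. Csf1r in asthma over control was 1.12 in alveolar macrophages and 0.261 in Xcr1+ cDC1. In tolerance over control it was 1.34 and 0.228 in the same classes. The Xcr1+ cDC1 values rest on 12, 7 and 29 UMIs in the asthma, tolerance and control pools. Their lanes in tolerance over control were 0.0514 and 0.652. In these Xcr1+ cDC1 the C1q macrophage markers summed to 12.9, 33.2 and 94.3 CPM in the same pools. Nonclassical monocyte markers summed to 61.9, 40.2 and 192 CPM. The part of both lists in the result was not tested. Csf2rb in asthma over control was 1.64 in C1q macrophages and 1.65 in mature DCs, but 0.739 in alveolar macrophages. In these C1q macrophages the alveolar macrophage markers summed to 838 CPM in the asthma pool, against 286 CPM in the control pool, and their part in the result was not tested. Csf2rb in tolerance over control was 1.92 in mature DCs and 0.821 in alveolar macrophages. The control values of C1q macrophages and mature DCs rest on 56 and 31 cells.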

How the results depend on the processing

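Over the alternatives, 417 log2 fold changes of the members stayed on their side of the threshold, 22 lost the call and 10 gained it. None of the calls turned round. Some of those not called changed sign, such as Csf2rb in C1q macrophages over cDC2, at -0.18 to 0.28. DESeq2 called 2550 genes in C1q over alveolar macrophages, 1544 in C1q macrophages over cDC2, 336 in cycling over non-cycling C1q cells, 1251 in nonclassical monocytes over C1q macrophages, 553 in Xcr1+ cDC1 over cDC2, 1415 in mature DCs over Xcr1+ cDC1 and 1956 in mature DCs over cDC2, against 3834, 3162, 1406, 2168, 1203, 2430 and 3316 by edgeR. Without the pool as a replicate block, edgeR called 1773 genes in C1q macrophages over cDC2, 919 in cycling over non-cycling C1q cells and 599 in Xcr1+ cDC1 over cDC2. Without the block the calls of Csf2ra and Csf2rb2 in C1q macrophages over cDC2 and of Csf1r in cycling C1q cells were lost (adjusted p 0.267, 0.0727 and 0.173), and Csf1r passed in nonclassical monocytes (0.0474); the block changed no other call of a member. The joint fit of all classes called 673 genes in cycling over non-cycling C1q cells. Leaving out 1 pool or 1 lane at a time gave 2237 to 4462, 1278 to 4008, 797 to 854, 1034 to 3066, 678 to 1795, 1233 to 3128 and 1788 to 4111 genes in the same order. For cycling over non-cycling C1q cells, with 2 pools, only lanes could be left out. The lowest counts came without the asthma pool (2237, 1034, 1233 and 1788), without the tolerance pool (1278 and 678) or with lane 1 left out (797). Csf1 in C1q over alveolar macrophages passed with lane 1 left out (-1.12, adjusted p = 0.016), against 0.33 with lane 2 left out. Of the ratios between pools, 360 stayed within their counting interval and 28 did not, mostly with 1 lane alone (Leiden clusters, chosen for these ratios after seeing the data, moved none), and thinning moved 30 shares of cells beyond their interval and left 6 within it. Leiden clusters gave no cycling C1q class. The causes were not tested. Few cells limit the control pool, with 56 C1q macrophages and 31 mature DCs.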
